A study of Mus musculus with 12 samples.

Results

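Mitochondrial biogenesis in muscle is steered by a small set of transcriptional regulators. The genes followed here are 10 of them, chosen by name but with earlier results of these data known: Ppargc1a, Ppargc1b, Perm1, Esrra, Esrrg, Ppara, Ppard, Nrf1, Tfam and Sirt3. All 10 were present among the 21976 genes held by both deposited count tables. They were measured by RNA sequencing of skeletal muscle of C57BL/6N mice, with 3 libraries in each of 4 groups. The PCN group ate a high-fat diet (HFD) and received PCN by intraperitoneal injection at 50 mg/kg on each of 4 days. PCN is pregnenolone carbonitrile, a synthetic steroid that activates the pregnane X receptor of rodents. The Vehicle group ate the same diet and was injected on 4 days with corn oil holding 30% DMSO. The label of 1 Vehicle library, Vehicle 23, leaves the diet unnamed. The HFD group ate that diet with no injection, and the Chow group ate regular chow with no injection. Diets began at 6 weeks of age and lasted 18 weeks in all 4 groups. Which muscle was sampled is not stated, and nothing in the labels says that each library came from a separate mouse, so p-values measure the spread between these samples.

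Ppargc1a and Ppargc1b encode the PGC-1 coactivators, which bind no DNA themselves and are recruited by nuclear receptors and other factors at mitochondrial genes. Among those receptors are Esrra and Esrrg, the estrogen-related receptors alpha and gamma, which bind at many genes of the respiratory chain and the citric acid cycle, and Ppara and Ppard, fatty-acid-sensing receptors that drive fat oxidation. Perm1 is a muscle protein that PGC-1 and the estrogen-related receptors induce and that acts on their targets in turn. Nrf1 (nuclear respiratory factor) activates nuclear genes for respiratory subunits and for the mitochondrial transcription machinery, Tfam packages and transcribes mitochondrial DNA, and Sirt3 is a deacetylase inside mitochondria. In skeletal muscle Ppargc1a is known for its induction by exercise and for its high level in oxidative fibres.

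Positions of the genes are given on GRCm38, as in the tables. Ppargc1a spans 51454250 to 51567726 on chromosome 5 and Perm1 156215868 to 156221307 on chromosome 4. Esrra spans 6910977 to 6921813 on chromosome 19, Esrrg 187608791 to 188214885 on chromosome 1, Ppara 85734983 to 85802819 on chromosome 15 and Ppard 28232700 to 28301474 on chromosome 17. Nrf1 spans 30047988 to 30153458 on chromosome 6, Tfam 71225464 to 71238280 on chromosome 10 and Sirt3 140863666 to 140882309 on chromosome 7. Esrra shares 73 exon bases with the opposite-strand gene Trmt112 and others with the same-strand microRNA gene Mir6990, and Sirt3 shares 760 with the opposite-strand genes Ric8a and Psmd13. No source used here gives the strand setting of the counting, so reads from these shared bases cannot be assigned to 1 gene. The other 8 genes share no exon bases with another annotated gene.

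Promoter sequence from RefSeq (GRCm38.p6) was at hand for 9 of the 10 genes, in 14 windows. Each ran from 250 bases before to 50 bases after a RefSeq start, which can lie inside the gene span given above. Of the 14 windows, 12 matched the opening of a GENCODE transcript. Distances below are counted from the RefSeq start of the window. Each window was searched on both strands for AAGGTCA, the core element bound by estrogen-related receptors, for GCGCATGC, the core of the Nrf1 site, and for CGGAAG, the core bound by GABP and other ETS factors. Of 32851 promoter windows in the table, 4.72% held the first, 2.71% the second and 16.9% the third. Among 69 windows of nuclear respiratory chain genes the shares were 11.6%, 14.5% and 39.1%, and among 12698 windows of genes tested over the 12 libraries 3.15%, 4.98% and 29.4%. The windows of 4 genes are shown. Ppargc1a is the gene called in Vehicle against HFD, and Perm1, Esrra and Ppara are among those whose levels moved together most closely. Esrrg, also among them (r = 0.901 with Ppara), is not shown. Capitals mark every match.
Ppargc1a, chr5:51567676-51567975, minus strand: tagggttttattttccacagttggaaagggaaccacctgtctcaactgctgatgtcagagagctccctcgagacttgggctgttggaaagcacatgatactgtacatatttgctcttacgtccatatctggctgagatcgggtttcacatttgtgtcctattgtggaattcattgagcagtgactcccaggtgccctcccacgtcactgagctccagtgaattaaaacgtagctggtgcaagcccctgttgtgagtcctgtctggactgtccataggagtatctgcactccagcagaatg
Perm1, chr4:156215677-156215976, plus strand: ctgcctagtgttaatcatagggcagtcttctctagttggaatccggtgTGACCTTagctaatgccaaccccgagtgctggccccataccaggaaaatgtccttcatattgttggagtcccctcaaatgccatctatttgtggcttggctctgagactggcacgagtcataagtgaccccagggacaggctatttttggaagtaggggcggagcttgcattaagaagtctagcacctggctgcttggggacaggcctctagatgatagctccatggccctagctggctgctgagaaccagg
Esrra, chr19:6921759-6922058, minus strand: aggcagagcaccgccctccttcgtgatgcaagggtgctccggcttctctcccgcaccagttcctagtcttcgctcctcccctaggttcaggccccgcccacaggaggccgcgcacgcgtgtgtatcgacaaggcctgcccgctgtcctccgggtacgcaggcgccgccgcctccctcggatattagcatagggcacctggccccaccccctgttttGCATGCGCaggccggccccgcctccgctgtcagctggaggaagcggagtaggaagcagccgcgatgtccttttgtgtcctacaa
Ppara, chr15:85735526-85735825, plus strand: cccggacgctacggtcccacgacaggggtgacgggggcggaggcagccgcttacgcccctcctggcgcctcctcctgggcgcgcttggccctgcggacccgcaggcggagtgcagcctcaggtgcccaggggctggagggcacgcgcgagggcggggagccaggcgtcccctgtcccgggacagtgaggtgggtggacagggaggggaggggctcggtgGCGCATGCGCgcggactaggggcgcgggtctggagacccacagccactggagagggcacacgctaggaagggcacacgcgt
The Perm1 match to the estrogen-related receptor element begins 202 bases before the start and reads on the opposite strand. Esrra has 1 Nrf1 core 34 bases before its start. Ppara has overlapping cores on both strands, 31 and 29 bases before its RefSeq start, in a window wholly inside the gene span given above. No searched motif lies in the Ppargc1a window. Elsewhere among the 14 windows, CGGAAG matched in Tfam (46 bases before the start), in Ppard (100 bases before it) and in 1 Sirt3 window (101 and 85 bases before it, and again just after it), with no overlap among these matches. The windows of Esrrg and Nrf1 held none of the motifs.

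Levels were expressed as CPM, each count scaled to the library's total, on 1 TMM scale over the 12 libraries, and divided by exon length (CPM per kilobase) where genes are compared with each other. Total counts were 14379421 to 19739226 per library in PCN, 16790642 to 17628784 in Vehicle, 14266093 to 17096576 in HFD and 12770308 to 18920359 in Chow. On the per-length scale Perm1 stood first, at 33.4 ± 17.3 CPM per kilobase (SD, n = 12), and lay above the next gene in 12 of 12 libraries. Ppargc1a (10.5 ± 6.3) and Esrra (10.3 ± 2.76) followed without a clear order, since Ppargc1a was above Esrra in 5 of 12 libraries. Esrra was above Tfam (5.64 ± 0.657) in 11 of 12. Ppara (4.41 ± 2.28) and Esrrg (3.66 ± 2.69) came next, with Tfam above Ppara in 7 libraries and Ppara above Esrrg in 7, so their order is within the spread. Ppargc1b (1.95 ± 1.01), Ppard (1.59 ± 0.641), Nrf1 (1.27 ± 0.197) and Sirt3 (1.13 ± 0.339) were the lowest, with each of the first 3 above the next in 7 to 9 libraries. The genes also differed in how far they varied. The highest library exceeded the lowest 11.0-fold for Esrrg, 8.48-fold for Perm1, 6.30-fold for Ppara and 5.73-fold for Ppargc1a, against 1.66-fold for Nrf1 and 1.51-fold for Tfam.

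Marker sums are in CPM of the library total, without TMM scaling. Skeletal muscle markers, 10 of 10 genes, summed to 231000 to 295000 CPM in PCN and 234000 to 289000 CPM in Vehicle. In HFD the sum was 309000 to 366000 CPM and in Chow 235000 to 302000 CPM. The 3 HFD libraries lay above all others on this sum, in which Ttn weighs heavily (208000 ± 34300 CPM in HFD, TMM-scaled). The markers did not all move alike, since 6 of 10 had lower fitted levels in HFD than in Chow. Their mean log2 CPM was 13.245, 13.291 and 13.318 in Chow 17, 19 and 8. It was higher in HFD 30 (13.353) and HFD 4 (13.363) and lower in HFD 38 (13.139). Slow-fibre markers varied widely between libraries. In the HFD and Chow table, 13 of 14 listed genes were held and summed to 59.0 to 121 CPM in HFD and 94.1 to 869 CPM in Chow. For PCN and Vehicle, 6 were held, summing to 22.3 to 157 CPM in PCN and 24.0 to 74.4 CPM in Vehicle. The 6 genes in both tables were Tpm3, Myh7b, Casq2, Pln, Sln and Myl6b, without Myh7, Myl2, Myl3 or Tnnt1. Some were barely counted, with Pln at 0.532 ± 0.291 CPM and Myl6b at 0.447 ± 0.166 CPM in Vehicle. Over these 6 genes, the mean log2 CPM was highest in PCN 5 (2.34), Chow 17 (2.06), Chow 19 (1.99) and Vehicle 55 (1.78). It was lowest in HFD 4 (0.10) and PCN 11 (0.21). These libraries recur among the extremes below. In bulk muscle, fewer cells of a type and less RNA per cell cannot be told apart.

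Of the coactivators, Ppargc1a was at 61.6, 48.6 and 34.5 CPM in PCN 5, 11 and 27, at 33.9, 32.0 and 52.1 CPM in Vehicle 15, 23 and 55, at 77.4, 89.7 and 72.1 CPM in HFD 4, 30 and 38, and at 184, 53.0 and 94.6 CPM in Chow 8, 17 and 19. The 3 HFD libraries all lay above the 6 injected ones, whereas the Chow libraries ran from below the highest PCN value to the highest value of all. Ppargc1b was at 7.39, 5.36 and 3.76 CPM in PCN, at 4.23, 4.07 and 8.19 CPM in Vehicle, at 6.87, 13.4 and 9.03 CPM in HFD and at 7.98, 5.84 and 17.3 CPM in Chow. Within the injected groups its libraries ranked as for Ppargc1a. Every group of Ppargc1b overlapped every other.

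Perm1, the muscle effector, was at 125, 87.5 and 31.1 CPM in PCN 5, 11 and 27, at 55.1, 95 and 129 CPM in Vehicle 15, 23 and 55, at 95.7, 140 and 149 CPM in HFD 4, 30 and 38, and at 156, 238 and 263 CPM in Chow 8, 17 and 19. The Chow libraries were the 3 highest of the 12, and PCN 27 was the lowest. Esrra was at 43.5, 38.9 and 19.7 CPM in PCN, at 36.7, 39.3 and 52.6 CPM in Vehicle, at 37.7, 46.7 and 51.9 CPM in HFD and at 51.6, 66.9 and 56.8 CPM in Chow. Its Chow values reached into the HFD and Vehicle ranges only through Chow 8. Esrrg was at 34.8, 10.5 and 7.57 CPM in PCN, at 5.50, 8.08 and 28.9 CPM in Vehicle, at 10.7, 25.2 and 20.2 CPM in HFD and at 18.0, 42.7 and 60.4 CPM in Chow. Within the injected groups, PCN 5 and Vehicle 55 stood well above the 4 other libraries.

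The same pair of injected libraries stood apart for Ppara, which was at 20.9, 6.37 and 4.50 CPM in PCN 5, 11 and 27, at 6.37, 7.81 and 25.9 CPM in Vehicle 15, 23 and 55, at 14.1, 22.3 and 22.4 CPM in HFD 4, 30 and 38, and at 17.7, 26.2 and 28.3 CPM in Chow 8, 17 and 19. Ppard did not share this shape. It was at 10.4, 6.06 and 11.7 CPM in PCN, at 8.51, 7.49 and 13.4 CPM in Vehicle, at 15.1, 22.2 and 14.7 CPM in HFD and at 8.96, 7.38 and 17.6 CPM in Chow, with all 3 HFD libraries above all 6 injected ones. Nrf1 stayed between 10.7 and 17.8 CPM and Tfam between 20.0 and 30.2 CPM over all 12 libraries. Sirt3 was at 7.13, 5.11 and 3.85 CPM in PCN, at 6.20, 4.50 and 7.43 CPM in Vehicle, at 5.33, 7.21 and 9.25 CPM in HFD and at 5.94, 10.8 and 8.32 CPM in Chow, so its groups overlapped throughout.

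**Figure D1:**
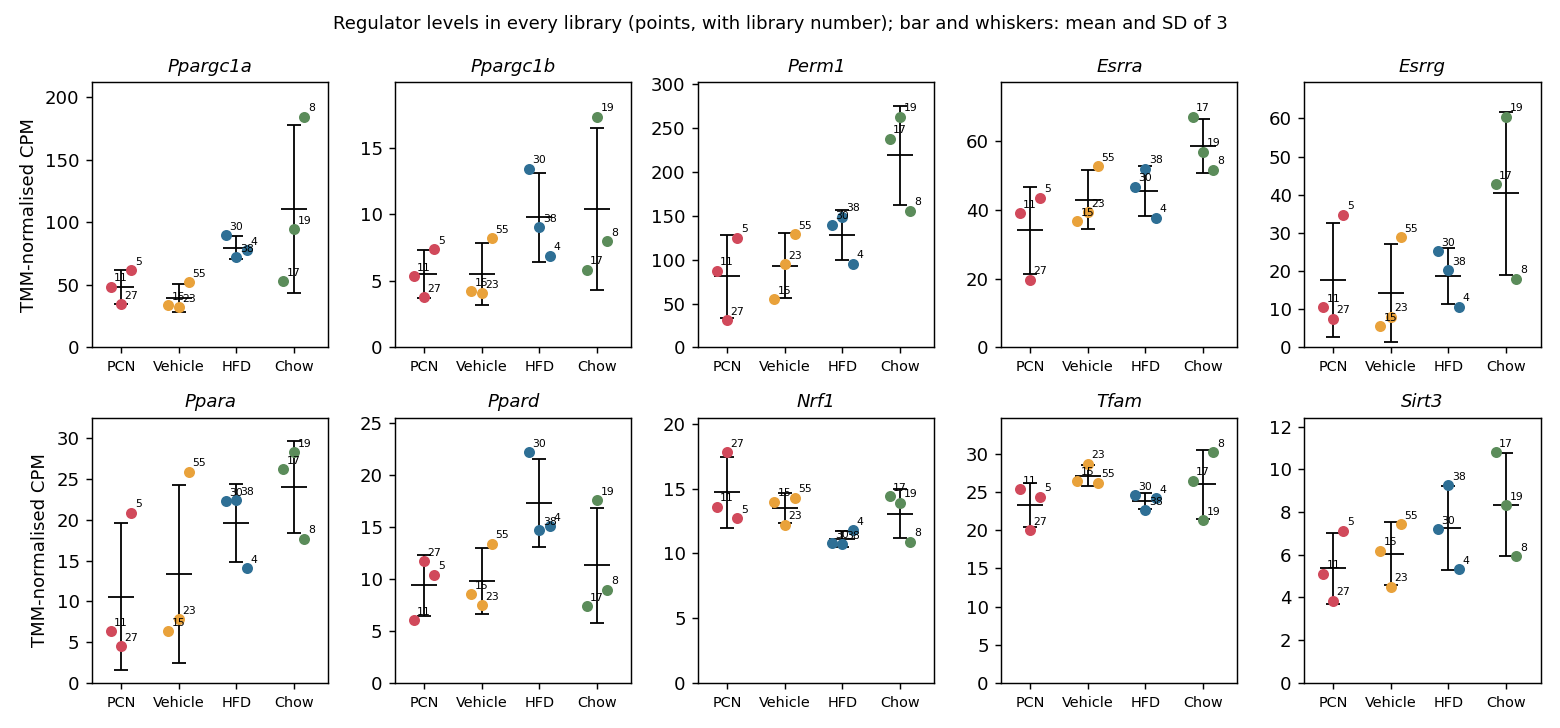
TMM-normalised CPM of each regulator (y axis, from 0) in the 3 libraries of the PCN, Vehicle, HFD and Chow groups (x axis), each point labelled with its library number; the horizontal tick and whiskers give the mean and SD of 3 libraries. For Ppargc1a the 3 HFD points (72.1 to 89.7 CPM) lie above the 3 Vehicle points (32.0 to 52.1 CPM), and for Esrrg and Ppara the points of PCN 5 and Vehicle 55 stand above the other injected libraries.

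The first comparison asked how the high-fat diet changed the regulators in mice that were not injected. No regulator passed the threshold in HFD against Chow, and Perm1 was the one whose groups did not overlap. Perm1 averaged 128 ± 28.5 CPM in HFD and 219 ± 56.0 CPM in Chow (SD, n = 3 each), a log2 fold change of -0.76 ± 0.23 (standard error, SE; edgeR quasi-likelihood test, Benjamini-Hochberg adjusted p = 0.581). Esrrg averaged 18.7 ± 7.38 CPM in HFD and 40.4 ± 21.3 CPM in Chow (log2 fold change -1.10 ± 0.51, adjusted p = 0.651), and Esrra 45.4 ± 7.20 CPM in HFD and 58.4 ± 7.78 CPM in Chow (-0.35 ± 0.16, adjusted p = 0.645). Ppard was the single regulator with a higher fitted level in HFD, at 17.3 ± 4.20 CPM against 11.3 ± 5.48 CPM in Chow (0.62 ± 0.33, adjusted p = 0.670). Ppargc1a averaged 79.8 ± 9.03 CPM in HFD and 110 ± 66.6 CPM in Chow (-0.46 ± 0.42, adjusted p = 0.807), and its Chow value rested on Chow 8. The other 5 regulators had log2 fold changes between -0.28 and -0.08.

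In all, edgeR called 0 of the 10 regulators at an adjusted p under 0.05, and 0% of 12686 genes tested. DESeq2 also called 0 of the 10, and 40 genes overall. With no filter on low counts edgeR called 1 regulator, Perm1, among 237 genes overall. At an unadjusted p under 0.05 there was 1 regulator, Perm1, beside 7.7% of all genes, and 1 of 10 did not overlap between groups beside 12.8% of all genes. These shares are near the background. Fitted levels were lower in HFD for 9 of 10 regulators, with a median log2 fold change of -0.25, while 49.9% of all genes tested were lower and their median was 0.

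The Chow side of this comparison moved with the slow-fibre markers. Those markers were lower in HFD for 12 of 13 tested genes, with a median log2 fold change of -1.76. Of them, edgeR called 0, and 7 had an unadjusted p under 0.05, beside 7.7% of all genes. DESeq2 called 4 lower, Myh7, Myl2, Myl3 and Tnnt1, among 40 genes called in this comparison. Without Chow 17 and Chow 19 together, 4 of 10 regulators were lower and Perm1 was at -0.28, Esrrg at 0.066 and Ppara at 0.16. With the slow-fibre level as a covariate, here over the 13 genes tested, 4 of 10 were again lower. The values were then -0.094 for Perm1, 0.35 for Esrrg and 0.36 for Ppara. Ppargc1a behaved otherwise, at -1.20 without those libraries (adjusted p = 0.124) and -1.25 with the covariate (adjusted p = 0.95), but its log2 fold change was 0.13 without Chow 8. Leaving out Chow 19 brought Ppard past the threshold (1.10, adjusted p = 0.0375). The part of fibre type in these differences was not tested beyond these values.

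PCN against Vehicle compared injected mice on the same diet. None of the 10 regulators passed, and the log2 fold changes lay between -0.34 and 0.32. Ppargc1a averaged 48.2 ± 13.5 CPM in PCN and 39.3 ± 11.1 CPM in Vehicle (log2 fold change 0.30 ± 0.26, SE; edgeR adjusted p = 0.998). Perm1 averaged 81.2 ± 47.3 CPM in PCN and 92.9 ± 36.9 CPM in Vehicle (-0.19 ± 0.53, adjusted p = 0.998), and Esrrg 17.6 ± 15.0 CPM in PCN and 14.1 ± 12.8 CPM in Vehicle (0.32 ± 0.85). For Perm1, Esrrg and Ppara (-0.34 ± 0.79) the standard error was larger than the difference itself, so these data could not show a change of that size. Tfam was the single regulator without overlap, at 24.4, 25.4 and 20.0 CPM in PCN 5, 11 and 27 against 26.5, 28.7 and 26.2 CPM in Vehicle 15, 23 and 55 (-0.22 ± 0.16, adjusted p = 0.998 by edgeR).

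Here edgeR and DESeq2 each called 0 of the 10 regulators and 0 of 12833 genes, or 0%. At an unadjusted p under 0.05 there were 0 regulators beside 2.82% of all genes, and groups did not overlap for 1 of 10 regulators beside 8.48% of all genes. The fitted levels of 7 of 10 regulators were lower in PCN (median log2 fold change -0.11, against 0.014 over all genes tested). That count was 4 without PCN 27, 5 without PCN 11 and 3 without Vehicle 55. It was 8 without PCN 5 or without Vehicle 15, so it depended on the libraries used.

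**Figure D2:**
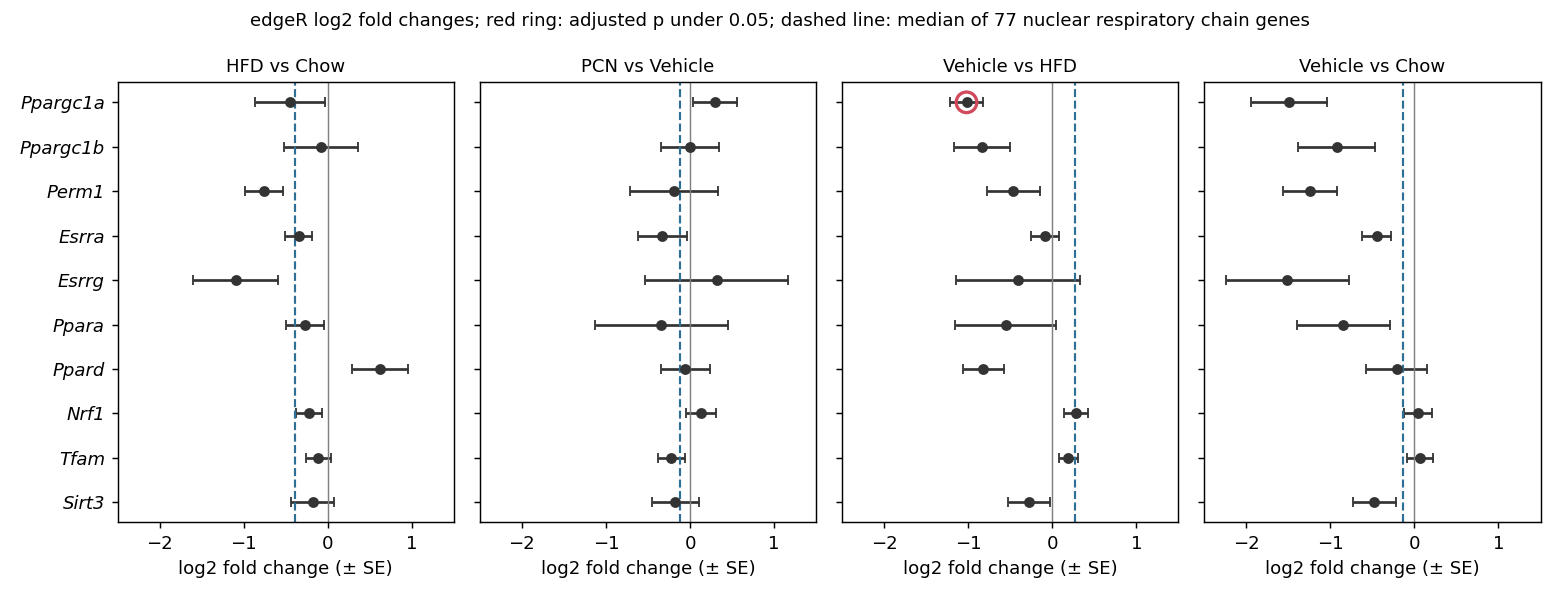
Log2 fold change from edgeR (x axis) of each regulator (y axis) in HFD over Chow, PCN over Vehicle, Vehicle over HFD and Vehicle over Chow; whiskers give the SE, the red ring an adjusted p under 0.05, and the dashed line the median of 77 nuclear respiratory chain genes. Ppargc1a in Vehicle over HFD (-1.02) is the one ringed point, and in that panel the dashed line (0.28) lies on the other side of 0.

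Vehicle against HFD compared injected with uninjected mice on the high-fat diet. Ppargc1a fell, and no other regulator passed the threshold. Ppargc1a averaged 39.3 ± 11.1 CPM in Vehicle and 79.8 ± 9.03 CPM in HFD (SD, n = 3 each), without overlap, for a log2 fold change of -1.02 ± 0.19 (SE; edgeR adjusted p = 0.0424). Ppargc1b averaged 5.50 ± 2.33 CPM in Vehicle and 9.78 ± 3.35 CPM in HFD (-0.83 ± 0.33, adjusted p = 0.241 by edgeR). Ppard averaged 9.82 ± 3.19 CPM in Vehicle and 17.3 ± 4.20 CPM in HFD, also without overlap (-0.82 ± 0.25, adjusted p = 0.133 by edgeR).

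A pair of regulators lay the other way, also without overlap but short of the threshold. Nrf1 was at 14, 12.2 and 14.3 CPM in Vehicle 15, 23 and 55 against 11.8, 10.8 and 10.7 CPM in HFD 4, 30 and 38 (0.28 ± 0.14, edgeR adjusted p = 0.321). Tfam was at 26.5, 28.7 and 26.2 CPM in Vehicle against 24.2, 24.6 and 22.6 CPM in HFD (0.19 ± 0.12, edgeR adjusted p = 0.434). Esrra (-0.085 ± 0.17), Esrrg (-0.40 ± 0.74), Perm1 (-0.46 ± 0.31), Ppara (-0.55 ± 0.60) and Sirt3 (-0.28 ± 0.25) overlapped between the groups.

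Of the 10 regulators, edgeR called 1, beside 1.51% of 12746 genes. Another 2, Ppargc1b and Ppard, had an unadjusted p under 0.05, so that 3 of 10 did so beside 17.8% of all genes, and 4 of 10 did not overlap beside 23.5%. DESeq2 called Ppargc1a (adjusted p = 0.000112) and Ppard (0.0335), among 607 genes overall. Levels were lower in Vehicle for 8 of 10 regulators, with a median log2 fold change of -0.43 against -0.001 over all genes.

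Counts per gene cannot separate the isoforms of Ppargc1a. The Ppargc1a call depended on the libraries used. Its log2 fold change stayed between -1.28 and -0.89 with each library left out, but the edgeR adjusted p was 0.199 without HFD 30, 0.0801 without HFD 38, 0.138 without HFD 4, 0.140 without Vehicle 15, 0.205 without Vehicle 23 and 0.301 with all 12 libraries in 1 fit. Without Vehicle 55 the adjusted p was 0.00115 and edgeR called 4 regulators, namely Ppargc1a, Ppargc1b (-1.24), Ppara (-1.47) and Ppard (-1.12), beside 1180 genes overall. Vehicle and HFD lie in different tables, so a difference between the tables cannot be told apart from the injections. Markers of other cells also differed between these groups. Fibroblast markers were lower in Vehicle for 8 of 10 genes, 4 of them at an unadjusted p under 0.05. They summed to 1040 to 1330 CPM in Vehicle and 815 to 1850 CPM in HFD. The collagen gene Col1a1 was the 1 called by edgeR, at 26.9 ± 2.91 CPM in Vehicle and 67.3 ± 22.5 CPM in HFD (-1.32 ± 0.22, edgeR adjusted p = 0.0344). DESeq2 called 3 fibroblast markers lower, Col1a1, Col1a2 and Col3a1. Macrophage markers were lower for 11 of 13 genes, with 0 at an unadjusted p under 0.05, and summed to 64.2 to 116 CPM in Vehicle and 53.8 to 163 CPM in HFD. Erythroid markers were higher for 5 of 5 tested genes, also with 0 at an unadjusted p under 0.05, and summed to 45.6 to 225 CPM in Vehicle and 42.5 to 63.4 CPM in HFD. Among skeletal muscle markers, the large sarcomere and calcium release genes Ttn (-0.86 ± 0.28), Ryr1 (-0.72 ± 0.20) and Neb (-0.52 ± 0.23) had lower fitted levels in Vehicle, with edgeR adjusted p of 0.153, 0.101 and 0.274. DESeq2 called these 3 lower. No marker of these lists was at 0 in all libraries of a group, and their part in the Ppargc1a result was not tested.

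Vehicle against Chow, where the diet and the injections both differ, shares its libraries with the comparisons above and is given beside them. Ppargc1a averaged 39.3 ± 11.1 CPM in Vehicle and 110 ± 66.6 CPM in Chow, without overlap (log2 fold change -1.49 ± 0.45, SE; edgeR adjusted p = 0.531). Perm1 averaged 92.9 ± 36.9 CPM in Vehicle and 219 ± 56.0 CPM in Chow, also without overlap (-1.24 ± 0.32, edgeR adjusted p = 0.366). Esrra averaged 42.9 ± 8.55 CPM in Vehicle and 58.4 ± 7.78 CPM in Chow (-0.45 ± 0.18, edgeR adjusted p = 0.603), and Esrrg 14.1 ± 12.8 CPM in Vehicle and 40.4 ± 21.3 CPM in Chow (-1.51 ± 0.73, adjusted p = 0.709). Nrf1 (0.043 ± 0.16) and Tfam (0.065 ± 0.16) differed least.

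None of the 10 regulators was called by edgeR in this comparison, beside 0.0392% of 12739 genes, whereas DESeq2 called Ppargc1a (adjusted p = 0.00748) and Perm1 (adjusted p = 0.00595), among 96 genes overall. At an unadjusted p under 0.05 there were 3 of 10 beside 7.72% of all genes, and 2 of 10 did not overlap beside 13.2%. The median over the regulators was -0.66, against -0.006 over all genes, and 8 of 10 were lower in Vehicle. Adding the slow-fibre level to the fit, an alternative picked once results were known, gave a median of -0.22, with Ppargc1a at -1.59 and Perm1 at -0.76.

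Across all 4 groups in 1 edgeR test with all 12 libraries, 0 of 10 regulators passed, beside 0.179% of 13375 genes. Ppargc1a had the lowest p (adjusted p = 0.163 by edgeR), followed by Perm1 (adjusted p = 0.271 by edgeR). These 2 of 10 had an unadjusted p under 0.05, beside 15.5% of all genes. DESeq2's likelihood ratio test called both, Ppargc1a at an adjusted p of 0.00354 and Perm1 at 0.0214, among 765 genes overall.

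Genes that act with the regulators were read from lists. Cofactors and partner receptors (19 genes) had higher fitted levels in HFD than in Chow for 14 of 19, with a median log2 fold change of 0.20, 0 called by edgeR (3 at an unadjusted p under 0.05) and 0 by DESeq2. Among them Nrip1, a corepressor of oxidative genes, averaged 121 ± 19.4 CPM in HFD and 80.5 ± 21.9 CPM in Chow (0.60 ± 0.20), and Ncoa1, a steroid receptor coactivator, 55.9 ± 2.62 CPM in HFD and 41.2 ± 7.44 CPM in Chow (0.45 ± 0.15), each with an edgeR adjusted p of 0.635. In Vehicle against HFD the same list had 16 of 19 lower, with a median of -0.25. An unadjusted p under 0.05 was found for 8 of them, beside 17.8% of all genes. DESeq2 calls included Crebbp, Ep300 and Med1, all lower. Among the edgeR calls of the list, Crebbp, a histone acetyltransferase, fell to 84.1 ± 18.0 CPM in Vehicle, against 155 ± 24.6 CPM in HFD (-0.88 ± 0.18, edgeR adjusted p = 0.0486). The Crebbp call ended with all 12 libraries in 1 fit (edgeR adjusted p = 0.231) and without HFD 30 (0.215), HFD 4 (0.190), Vehicle 15 (0.152), Vehicle 23 (0.226) or HFD 38 (0.0594).

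Upstream kinases and factors (23 genes) gave 0 edgeR calls in the 4 comparisons of pairs of groups, with 4 genes at an unadjusted p under 0.05 in HFD against Chow, 0 in PCN against Vehicle, 4 in Vehicle against HFD and 2 in Vehicle against Chow. In Vehicle against HFD 15 of 23 were lower, among them the calcium-dependent kinase Camk2a, at 132 ± 29.3 CPM in Vehicle and 240 ± 41.2 CPM in HFD (-0.87 ± 0.19, edgeR adjusted p = 0.0548, DESeq2 adjusted p = 0.00103), and Mef2d, a factor that activates Ppargc1a in muscle, at 88.6 ± 22.9 CPM in Vehicle and 152 ± 27.7 CPM in HFD (-0.78 ± 0.20, edgeR adjusted p = 0.0886, DESeq2 adjusted p = 0.00623). These 2 were the DESeq2 calls of the list. In HFD against Chow 15 of 23 were higher, led by the AMP-activated kinase subunit Prkab2 (0.56 ± 0.18, edgeR adjusted p = 0.622). The machinery of mitochondrial DNA (16 genes) and the other sirtuins (6 genes) had 0 calls by edgeR or DESeq2 in any of the 4, with 1 sirtuin at an unadjusted p under 0.05 (in Vehicle against HFD) and list medians between -0.11 and 0.17. In PCN against Vehicle 13 of 16 machinery genes were higher, led by Mterf4, a mitochondrial termination factor (0.45 ± 0.21, edgeR adjusted p = 0.998).

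Targets were tallied by regulator. Of 20 PPAR targets, 11 were lower in HFD than in Chow. Among them edgeR called 0, with 2 at an unadjusted p under 0.05, and DESeq2 called 2 lower, Pdk4 (adjusted p = 0.00449) and the thioesterase Acot2 (adjusted p = 0.0349). The pyruvate dehydrogenase kinase gene Pdk4 averaged 1910 ± 219 CPM in HFD and 3030 ± 68.4 CPM in Chow (-0.65 ± 0.16, edgeR adjusted p = 0.464), and 1280 ± 262 CPM in Vehicle against the same Chow libraries (-1.25 ± 0.20, edgeR adjusted p = 0.117, DESeq2 adjusted p = 2.37e-08). The other way from Pdk4, 13 of 19 PPAR targets were higher in Vehicle than in Chow (median log2 fold change 0.15). Of 20 targets of estrogen-related receptors and PGC-1, 18 were lower in HFD than in Chow, with 0 called by edgeR (4 at an unadjusted p under 0.05) and 0 by DESeq2, including Tomm20, an import receptor of the outer mitochondrial membrane (-0.50 ± 0.13, edgeR adjusted p = 0.505), and Vegfa, a vascular growth factor (-0.77 ± 0.20, edgeR adjusted p = 0.517). For Vehicle against HFD 13 of these 20 were higher. Substrates of Sirt3 (10 genes) had 8 lower in HFD than in Chow, with 0 called by edgeR (2 at an unadjusted p under 0.05) and 0 by DESeq2, among them Idh2, the mitochondrial isocitrate dehydrogenase, at 115 ± 36.1 CPM in HFD and 237 ± 94.7 CPM in Chow (-1.02 ± 0.34, edgeR adjusted p = 0.635). The Idh2 value was -0.10 with the slow-fibre covariate and -0.37 without Chow 17 and Chow 19.

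Respiratory chain levels and Ppargc1a lay on opposite sides of 0 in Vehicle against HFD. The 77 nuclear-encoded genes of complexes I to V held by both tables had a median log2 fold change of -0.39 in HFD against Chow, with 77 of 77 lower, 12 of them at an unadjusted p under 0.05 and 0 called by edgeR or DESeq2. That median was -0.147 with the slow-fibre covariate and -0.185 without Chow 17. In Vehicle against HFD their median was 0.28 with 72 of 77 higher, 27 of them at an unadjusted p under 0.05, while Ppargc1a was lower. Atp5g2, a ring subunit of ATP synthase, was the 1 gene that edgeR called there. It rose to 65.4 ± 8.10 CPM in Vehicle, against 35.4 ± 3.36 CPM in HFD (0.89 ± 0.14, edgeR adjusted p = 0.0246), a call that ended with all 12 libraries in 1 fit (0.116) and without HFD 30 (0.0982), HFD 38 (0.0598), HFD 4 (0.114), Vehicle 15 (0.0768) or Vehicle 23 (0.154). DESeq2 called 6 chain genes higher, namely Atp5g2, Cox6a2, Cox8b, Ndufa4, Ndufa7 and Ndufb4. Cox6a2, a muscle subunit of complex IV, averaged 629 ± 62 CPM in Vehicle and 410 ± 26 CPM in HFD (0.62 ± 0.15, edgeR adjusted p = 0.0698, DESeq2 adjusted p = 0.000769).

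In PCN against Vehicle the median over the nuclear chain genes was -0.12 with 71 of 77 lower, and it was 0.049 without PCN 27. Vehicle against Chow gave -0.14 with 60 of 77 lower, and 0.088 without Chow 17. Of the 13 mitochondrially encoded chain genes, 11 were tested in HFD against Chow and all 11 were lower (median -0.38), with 0 called by edgeR (3 at an unadjusted p under 0.05) and 0 by DESeq2. For Vehicle against HFD 6 of 11 were higher (median 0.13), with 0 called by edgeR (2 at an unadjusted p under 0.05) and 1 by DESeq2. That gene, mt-Nd5, lay against the median, at 3010 ± 1030 CPM in Vehicle and 5900 ± 1780 CPM in HFD (-0.97 ± 0.29, edgeR adjusted p = 0.12, DESeq2 adjusted p = 0.00384). Several of these genes have near-identical nuclear copies and are uncertain, and mt-Co3 and mt-Atp6 were at 11.5 ± 2.81 and 4.93 ± 1.11 CPM in HFD where mt-Co1 was at 38200 ± 6630 CPM.

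By library, each regulator was then compared with the mean log2 CPM of the 77 nuclear chain genes and of 12 mitochondrially encoded ones. The latter mean weighs its 12 genes equally, so low and uncertain ones such as mt-Co3 and mt-Atp6 count as much as mt-Co1. Of the 20 relations, 6 had an adjusted p under 0.05 (two-sided permutation of Pearson's r, 100000 resamples, Benjamini-Hochberg over the 20). With the mitochondrially encoded genes these were Esrrg (r = 0.894, Spearman's rho 0.888, p = 0.00022, adjusted p = 0.0019), Perm1 (0.856, rho 0.790, p = 0.00012, adjusted p = 0.0019), Ppara (0.849, rho 0.832, p = 0.00038, adjusted p = 0.0019), Esrra (0.828, rho 0.846, p = 0.00034, adjusted p = 0.0019) and Sirt3 (0.757, rho 0.713, p = 0.00448, adjusted p = 0.0179). With the nuclear-encoded genes it was Esrra alone (r = 0.710, rho 0.580, p = 0.0114, adjusted p = 0.0381). A Pearson r of 0.7 or more was thus found for 5 of 10 regulators with the mitochondrially encoded level, beside 4.04% of 13375 genes, and for 1 of 10 with the nuclear level, beside 3.79%.

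Ppargc1a tracked neither level over the 12 libraries, at r = 0.018 with the nuclear genes (rho -0.091, permutation p = 0.955) and 0.433 with the mitochondrially encoded ones (rho 0.413, permutation p = 0.159). Ppargc1b was at 0.029 and 0.635, Tfam at 0.524 and 0.238, Nrf1 at -0.039 and -0.215 and Ppard at -0.443 and 0.189, none with an adjusted p under 0.05. Chow 8 shows the split most plainly, with the highest Ppargc1a of all libraries (log2 CPM 7.52) beside a middling nuclear chain level (mean log2 CPM 6.77). Chow 17 had the highest nuclear level (7.24) with a Ppargc1a log2 CPM of 5.73.

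**Figure D3:**
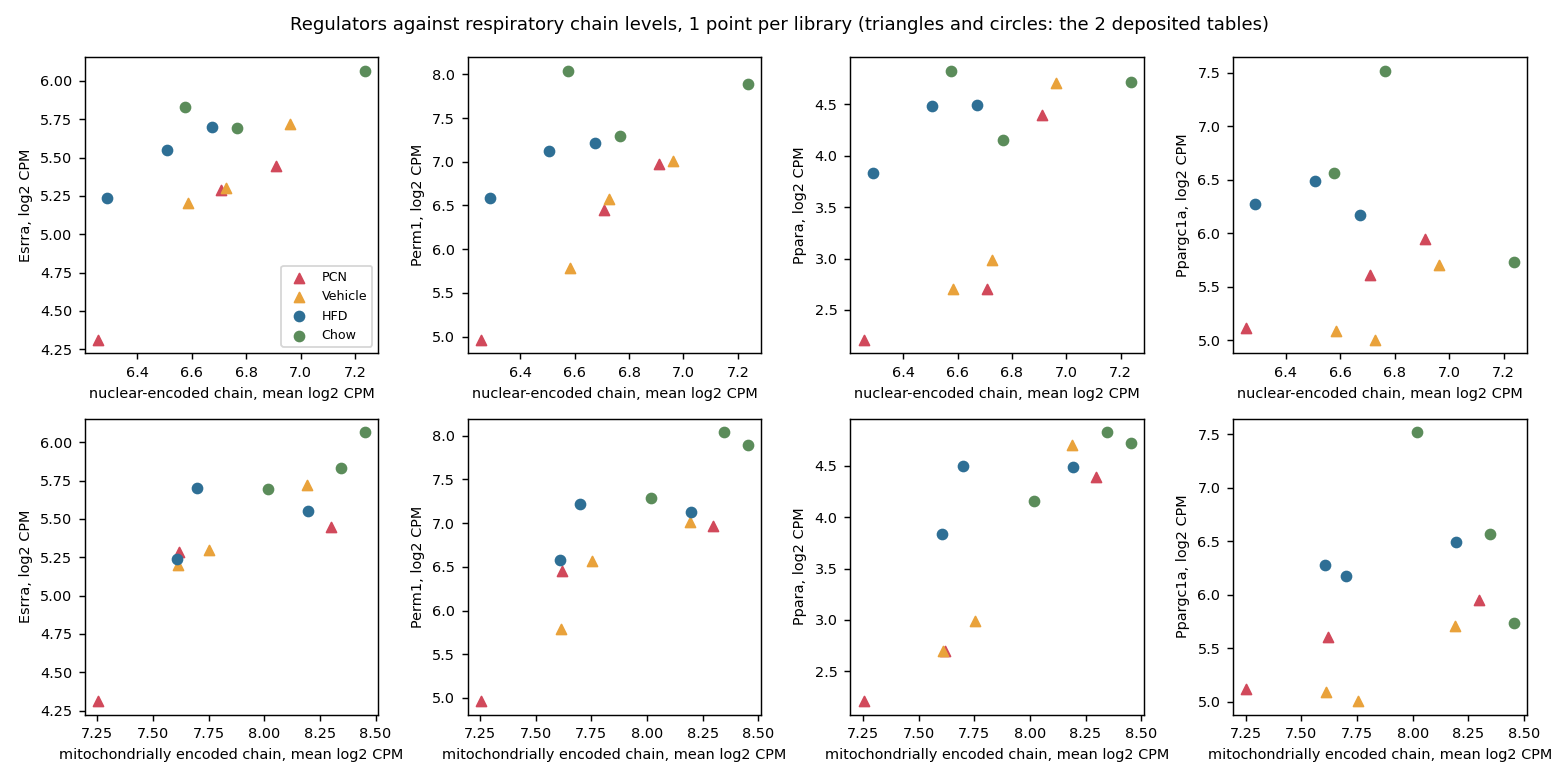
Log2 CPM of Esrra, Perm1, Ppara and Ppargc1a (y axes) against the mean log2 CPM of the nuclear-encoded (top row) and mitochondrially encoded (bottom row) respiratory chain genes (x axes), 1 point per library; triangles are PCN and Vehicle and circles HFD and Chow, the 2 deposited tables. In the bottom row Esrra, Perm1 and Ppara climb together with the chain level (r = 0.828, 0.856 and 0.849), and in the Ppargc1a panels Chow 8 (log2 CPM 7.52) stands above all other libraries.

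Fewer relations passed without the extreme libraries. Chow 17 and PCN 27 lie farthest from the median chain level, and without both of them the 1 relation left with an adjusted p under 0.05 was Esrrg with the mitochondrially encoded genes (r = 0.886, permutation p = 0.00059, adjusted p = 0.0118). Perm1 was then at 0.725, Ppara at 0.767, Esrra at 0.690 and Sirt3 at 0.525 with those genes, and Esrra at 0.335 with the nuclear ones. That nuclear relation of Esrra was at 0.621 without Chow 17 alone and 0.611 without PCN 27 alone. Leaving out both also narrows the range of chain levels, so it cannot show that the relation rests on those libraries. Within groups, with values centred on the group mean, 3 relations passed (exact permutation within groups). They were Esrra with the nuclear genes (r = 0.864, adjusted p = 0.0206), and Esrrg (0.900, adjusted p = 0.0206) and Ppara (0.895, adjusted p = 0.0206) with the mitochondrially encoded genes.

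The tables were also read apart, with 6 libraries each and an exact permutation test over pairings. In the PCN and Vehicle table, r with the nuclear genes was 0.986 for Perm1 and 0.967 for Esrra, each with an exact permutation p of 0.00139 (adjusted p = 0.0139), the smallest that 6 libraries allow. In the HFD and Chow table these were 0.660 and 0.892, and none of the 20 relations passed. With the mitochondrially encoded genes, r in the PCN and Vehicle table against the HFD and Chow table was 0.883 and 0.877 for Esrrg, 0.905 and 0.846 for Perm1, 0.965 and 0.776 for Ppara, and 0.847 and 0.773 for Esrra. Ppargc1a correlated with the nuclear genes at 0.70 (p = 0.115, exact permutation) in the first table and -0.268 (p = 0.572, exact permutation) in the second.

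The slow-fibre level, over the 6 genes in both tables, moved with the same regulators. Those genes did not all move alike, with log2 fold changes of 2.28 for Sln and -1.51 for Myl6b in Vehicle against HFD. The level lacks Myh7, Myl2, Myl3 and Tnnt1, so it reads fibre type only in part. Over 12 libraries its r was 0.842 with Esrrg, 0.787 with Sirt3, 0.784 with Ppara, 0.686 with Perm1 and 0.669 with Esrra, each with an adjusted permutation p of 0.0228 or less over 10 relations, against 0.260 with Ppargc1a. Given the slow-fibre level, the partial r with the mitochondrially encoded genes was 0.711 for Perm1 (adjusted permutation p = 0.0742), 0.662 for Esrra (0.103), 0.628 for Esrrg (0.121), 0.561 for Ppara (0.203) and 0.272 for Sirt3 (0.634). The one relation that passed in this form was a negative one, Ppard with the nuclear genes (partial r = -0.828, adjusted permutation p = 0.0244).

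Among themselves, the regulators formed a tightly linked set and a few that stood outside it. Of 45 pairs, 33 correlated positively and 15 had an adjusted p under 0.05 (two-sided permutation of Pearson's r, Benjamini-Hochberg over 45). Esrra and Perm1 were closest (r = 0.947, rho 0.923, permutation p = 1e-05, the smallest that 100000 resamples can give, adjusted p = 0.000225), followed by Esrrg with Ppara (0.901) and Perm1 with Ppara (0.892). Without the 2 libraries farthest from the median of the pair's first-named gene, which differ by pair, these were 0.894, 0.893 and 0.782. Within the PCN and Vehicle table they were 0.939, 0.924 and 0.828, and within the HFD and Chow table they were 0.915, 0.948 and 0.897. Both coactivators correlated with each other at 0.727 (rho 0.811, adjusted permutation p = 0.0208), at 0.918 within the PCN and Vehicle table and at 0.256 within the HFD and Chow table. Nrf1 had a negative r with all 9 other regulators over the 12 libraries, none with an adjusted permutation p under 0.05. Within the HFD and Chow table its r was positive with Esrra (0.597), Esrrg (0.718), Perm1 (0.726), Ppara (0.545) and Sirt3 (0.504), so that the sign did not hold in both tables.

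**Figure D4:**
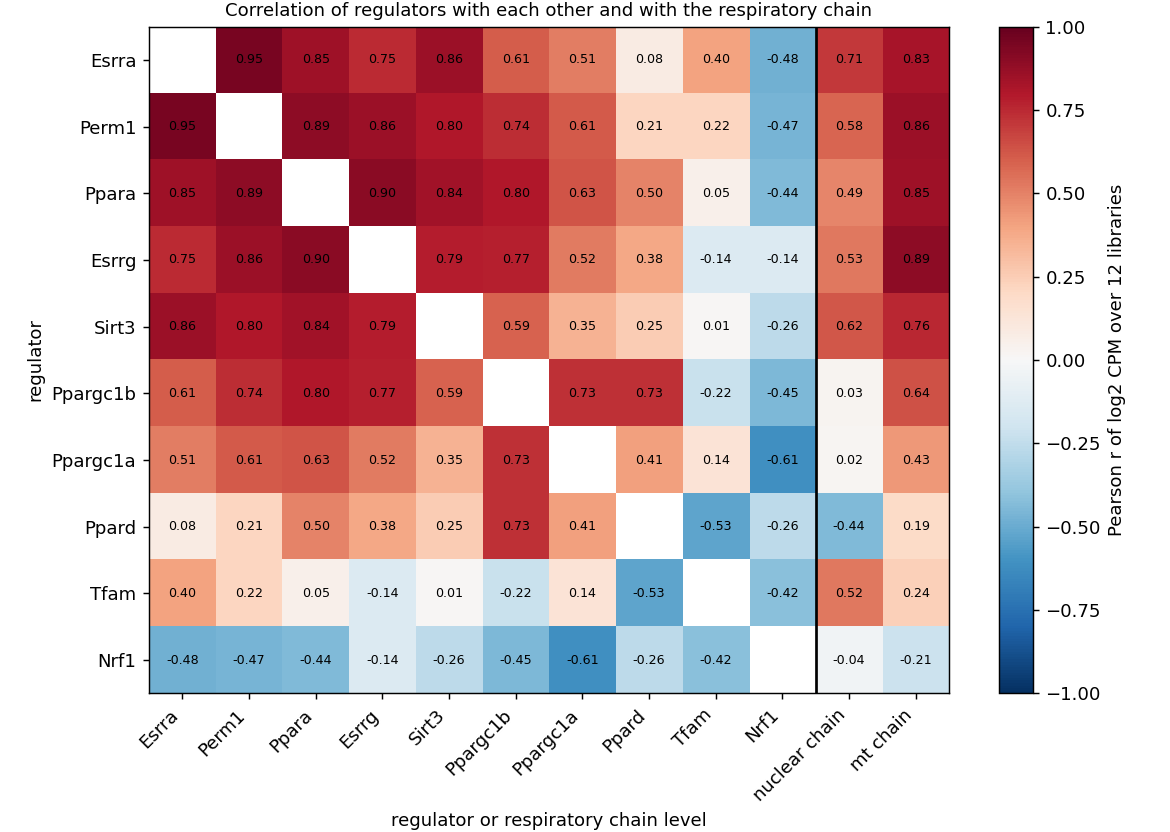
Pearson r of log2 CPM over the 12 libraries between regulators (rows and first 10 columns) and with the nuclear and mitochondrially encoded respiratory chain levels (last columns, right of the black line); red is positive and blue negative, with r printed in each cell. Esrra, Perm1, Ppara, Esrrg and Sirt3 form a block with r from 0.75 to 0.95, and the Nrf1 row is blue.

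Searching 7984 named genes with a mean of at least 5 CPM for the most similar profiles over the 12 libraries gave Hk2, hexokinase 2, for Ppargc1a (r = 0.879, followed by Rexo1 at 0.873 and Maff at 0.859) and mt-Nd5, a complex I subunit encoded in mitochondrial DNA, for Ppargc1b (0.959, then Ssh1 at 0.948 and Ahdc1 at 0.934). Esrra lay closest to mitochondrial genes, Isca1 of iron-sulfur assembly (0.982), Coq7 of ubiquinone synthesis (0.974) and Cyc1, cytochrome c1 of complex III (0.971). Ppara was most like Ppip5k1 (0.984), Cs, the citrate synthase gene (0.978), and Qk (0.972), and Perm1 like Cmtm4 (0.963), Dnajc27 (0.953) and Esrra itself (0.947). The nearest genes to Esrrg were Myh10 (0.965), Camta1 (0.959) and Zfp827 (0.959), and to Ppard Zfp462 (0.962), Mical3 (0.962) and Trrap (0.959). Tfam was most like Pkia (0.903), Ppp2r5c (0.887) and Oxr1 (0.870), Nrf1 like Rspry1 (0.907), Taz (0.895) and Pknox1 (0.888), and Sirt3 like Inpp1 (0.914), Mfn1, a mitochondrial fusion gene (0.910), and Ets1 (0.907). Each is the top of that search and is a description of these 12 libraries.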

How the data were processed

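Skeletal muscle RNA of 12 libraries was sequenced. The authors deposited 2 tables of read counts per gene, 1 for HFD and Chow (24093 genes) and 1 for PCN and Vehicle (24453 genes); reads were processed with HISAT2, HTSeq and DESeq2 on GRCm38 (mm10), per the submitters' processing notes, which give no versions. Groups come from the labels. The counts were tested as deposited with edgeR 4.0.16 in R 4.3.3 (TMM scaling, filterByExpr with a minimum count of 10, robust quasi-likelihood F test), with Benjamini-Hochberg adjustment over all genes tested and a threshold of 0.05. Vehicle against HFD, Vehicle against Chow and the test of 4 groups used the 21976 genes in both tables. SE is the log2 fold change divided by the root of F. Total counts per library are in the report and limit the precision of low genes.

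Levels are CPM on 1 TMM scale, with a prior count of 2 on the log2 scale. Permutation tests used 100000 resamples over 12 libraries and exact enumeration over 6. Python 3.11.15, scipy 1.17.1, numpy 2.4.6 and pandas 2.3.3 were used. Alternatives were DESeq2 1.42.0, DESeq2 size factors, no filter, a minimum count of 30, nuclear-encoded genes only, all 12 libraries in 1 fit, a slow-fibre covariate and each library left out. On simulated counts with 200 genes changed 4-fold, edgeR recovered 98% in HFD against Chow (12686 genes), 95% in PCN against Vehicle (12833), 98.5% in Vehicle against HFD (12746), 99% in Vehicle against Chow (12739) and 96% across 4 groups (13375). In the same order it also called 11, 22, 18, 12 and 9 unchanged genes. Smaller changes, and changes in genes with low counts, were not simulated, so recovery of such changes is not known.

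All 10 regulators and the 6 shared slow-fibre genes are named. Also named are up to 4 genes of lowest p from each other list in the comparison described, and the 3 genes of highest r for likeness. The result of 1 listed gene is not reported here. The regulators and lists were chosen with earlier results of these data known. Of gene IDs, 98.0% had the same start and end in GENCODE M21. Chi-square per gene between replicates of a group was 19.6 to 107.76, so no library was a repeat of another in its group. Libraries of different groups were not compared in this way.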

Additional observations from a re-analysis of the deposited data

How the results depend on the processing

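No paired analysis was possible because the groups share no replicate number in the labels. Among the values of single genes and relations recomputed under an alternative, 1263 kept their direction and side of the threshold, 57 passed it newly, 55 lost it and 70 reversed. The cause of the changes was not tested. Genes called in HFD against Chow were 0, but 40 with DESeq2, 237 with no filter and 0 to 219 with 1 library left out. In PCN against Vehicle they were 0, and 21 with no filter. In Vehicle against HFD they were 193, but 607 with DESeq2, 571 with no filter, 0 with all 12 libraries in 1 fit, 310 with the slow-fibre covariate (chosen after seeing the data) and 0 to 1180 with 1 library left out. In Vehicle against Chow they were 5, but 96 with DESeq2, 9 with DESeq2 size factors, 75 with no filter, 2 with a minimum count of 30, 2 with all 12 libraries, 13 with the covariate (chosen after seeing the data) and 0 to 26 with 1 library left out. Across 4 groups they were 24, but 765 with DESeq2, 15 with nuclear-encoded genes only, 185 with no filter, 13 with a minimum count of 30 and 3 to 216 with 1 library left out.

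Regulators called in HFD against Chow were 1 with no filter and 0 to 1 with 1 library left out. In Vehicle against HFD they were 2 with DESeq2, 0 with all 12 libraries and 0 to 4 with 1 left out. In Vehicle against Chow and across 4 groups they were 2 with DESeq2 and 0 to 1 with 1 left out (1 without Chow 17 across 4 groups, where the edgeR adjusted p of Ppargc1a was 0.048). Crebbp in Vehicle against HFD also lost its call at a minimum count of 30 (edgeR adjusted p = 0.0501).

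Some log2 fold changes reversed. In HFD against Chow without Chow 17 and Chow 19 they were 0.302 for Ppargc1b, 0.066 for Esrrg, 0.028 for Nrf1, 0.162 for Ppara and 0.306 for Sirt3, and with the covariate 0.453, 0.35, 0.012, 0.358 and 0.526 for the same genes. Without those libraries the lone Chow library is assumed to vary like the HFD ones. With 1 library left out the ranges were -0.795 to 0.125 for Ppargc1a, -0.379 to 0.524 for Ppargc1b, -0.406 to 0.031 for Sirt3 and -0.241 to 0.011 for Tfam. In PCN against Vehicle Ppargc1b was 0.001 with DESeq2, 0.001 with a minimum count of 30 and 0.089 with the covariate, and Ppard 0.018 with the covariate. Ranges with 1 library left out were -0.654 to 1.359 for Esrrg, -0.032 to 0.224 for Nrf1, -0.649 to 0.199 for Perm1, -1.304 to 0.56 for Ppara, -0.246 to 0.226 for Ppard, -0.275 to 0.39 for Ppargc1b, -0.435 to 0.024 for Sirt3 and -0.267 to 0.049 for the nuclear chain median. In Vehicle against HFD Esrra ran from -0.262 to 0.023. In Vehicle against Chow Tfam was -0.049 and Ppard 0.155 with the covariate, and the ranges were -0.068 to 0.115 for Nrf1, -0.508 to 0.271 for Ppard, -0.06 to 0.186 for Tfam and -0.262 to 0.088 for the nuclear chain median. The nuclear chain median in HFD against Chow ran from -0.53 to -0.185 and in Vehicle against HFD from 0.169 to 0.364.

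Of the 20 relations, 6 passed, but 1 without the 2 farthest libraries, 3 centred on the group mean, 0 within the HFD and Chow table, 1 given the slow-fibre level and 4 to 9 with 1 library left out. Reversed r with the nuclear-encoded genes were, for Ppargc1a, -0.029 on nuclear-encoded genes only, -0.14 without the farthest libraries, -0.009 centred, -0.268 within HFD and Chow and -0.211 given the slow-fibre level. Those of Ppargc1b were -0.028, -0.138, -0.426 within HFD and Chow and -0.512 given the slow-fibre level. Given the slow-fibre level Esrrg was -0.07, Ppara -0.057 and Nrf1 0.046. Nrf1 was 0.279 without the farthest libraries and 0.481 within HFD and Chow, and Ppard 0.048 within PCN and Vehicle. With the mitochondrially encoded genes Ppargc1a was -0.107 within HFD and Chow, Tfam -0.228 and Nrf1 0.092 without the farthest libraries, Nrf1 0.664 and Ppard -0.222 within HFD and Chow, and Ppard -0.036 given the slow-fibre level. With 1 library left out the nuclear r ran from -0.189 to 0.096 for Ppargc1a, -0.221 to 0.14 for Ppargc1b and -0.233 to 0.444 for Nrf1, and the mitochondrially encoded r from -0.132 to 0.454 for Tfam and -0.356 to 0.254 for Nrf1.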
